A study of Mus musculus with 23 samples.

Results

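Cartilage-type matrix genes and their Sox factors were followed in mouse gliomas of the lines CT2A and GL261. The set held 10 of 35576 genes, namely Cnmd, Chadl, Acan, Hapln1, Comp, Matn2, Matn4, Sox5, Sox6 and Sox9, and left the collagens aside. The members were chosen by their reads over the same 6 groups of libraries that are described here, so their differences between the lines are a description, and counts of members past a threshold are printed only beside those of all genes. Both lines were originally induced in C57BL/6 mice with methylcholanthrene, and here they grew intracranially in female albino C57BL/6 mice aged 7 to 10 weeks, which were immunocompetent. All of the lines carried firefly luciferase.

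Neurosphere-derived sorted cells came from 5 CT2A and 3 GL261 libraries, and sorted cells of adherent lines from 3 CT2A and 4 GL261 libraries. In these, tumor cells of separate sublines were pulled out of each tumor with beads. Bulk tumors, with all cells of the piece, came from 4 CT2A-luc and 4 GL261-luc2 libraries. For sorted cells 200000 cells were implanted and reads were 37-base pairs, against 25000 CT2A or 100000 GL261 cells and 150-base pairs for bulk tumors, so sample kind, subline, implanted number and read length cannot be told apart. The titles of the 5 neurosphere-derived CT2A libraries name GL261, while their description and cell line labels name CT2A, and they are grouped here by the cell line label. Estimated reads per library were 7395846 to 15263587 in all groups but GL261 bulk, where they were 34622622 to 42608400. In bulk tumors, line, implanted number and depth therefore differ together. Cnmd, Acan and Sox6 were lower in the neurosphere-derived CT2A libraries than in any GL261 library. The members were chosen by their reads over these same groups, so their values cannot test the cell line label, which was not tested.

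Cartilage is built on aggregates of aggrecan, a chondroitin sulfate proteoglycan encoded by Acan, which are held on hyaluronan by the link protein encoded by Hapln1. COMP and the matrilins bridge these aggregates and collagen fibrils, and chondromodulin (Cnmd) is a cartilage glycoprotein that restrains vessel growth. In chondrocytes SOX9 switches this program on, with SOX5 and SOX6 as partners at the same enhancers. In the central nervous system aggrecan and link protein also form the perineuronal nets of neurons, SOX9 is a factor of astrocytes and neural progenitors, and SOX5, SOX6 and SOX10 act in oligodendrocyte progenitors.

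In sorted cells Cnmd, Acan, Chadl, Matn2, Comp and Sox6 were all lower in CT2A than in GL261, with no overlap between the libraries of the lines, in adherent and neurosphere-derived samples alike. Sox9 was higher in CT2A cells in both. Hapln1 and Sox5 lay between 1.78 and 26.2 CPM in the sorted libraries of both lines, and Matn4 was close to 0 in every sorted library. In adherent samples Hapln1 was also without overlap, but higher in CT2A. The share of all genes without overlap was not counted, so nothing is read from a lack of overlap here or below. By a different measure, 26.8% of 13792 genes in adherent samples were lower in CT2A and 24.0% higher, at an adjusted p under 0.05 in edgeR's quasi-likelihood test. In neurosphere-derived samples 29.6% of 13742 genes were lower and 29.9% higher. Levels of a gene are given as CPM, Salmon's estimated reads summed over the gene's transcripts and scaled to library size with TMM factors, and all errors are SD over libraries unless called SE.

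**Figure D1:**
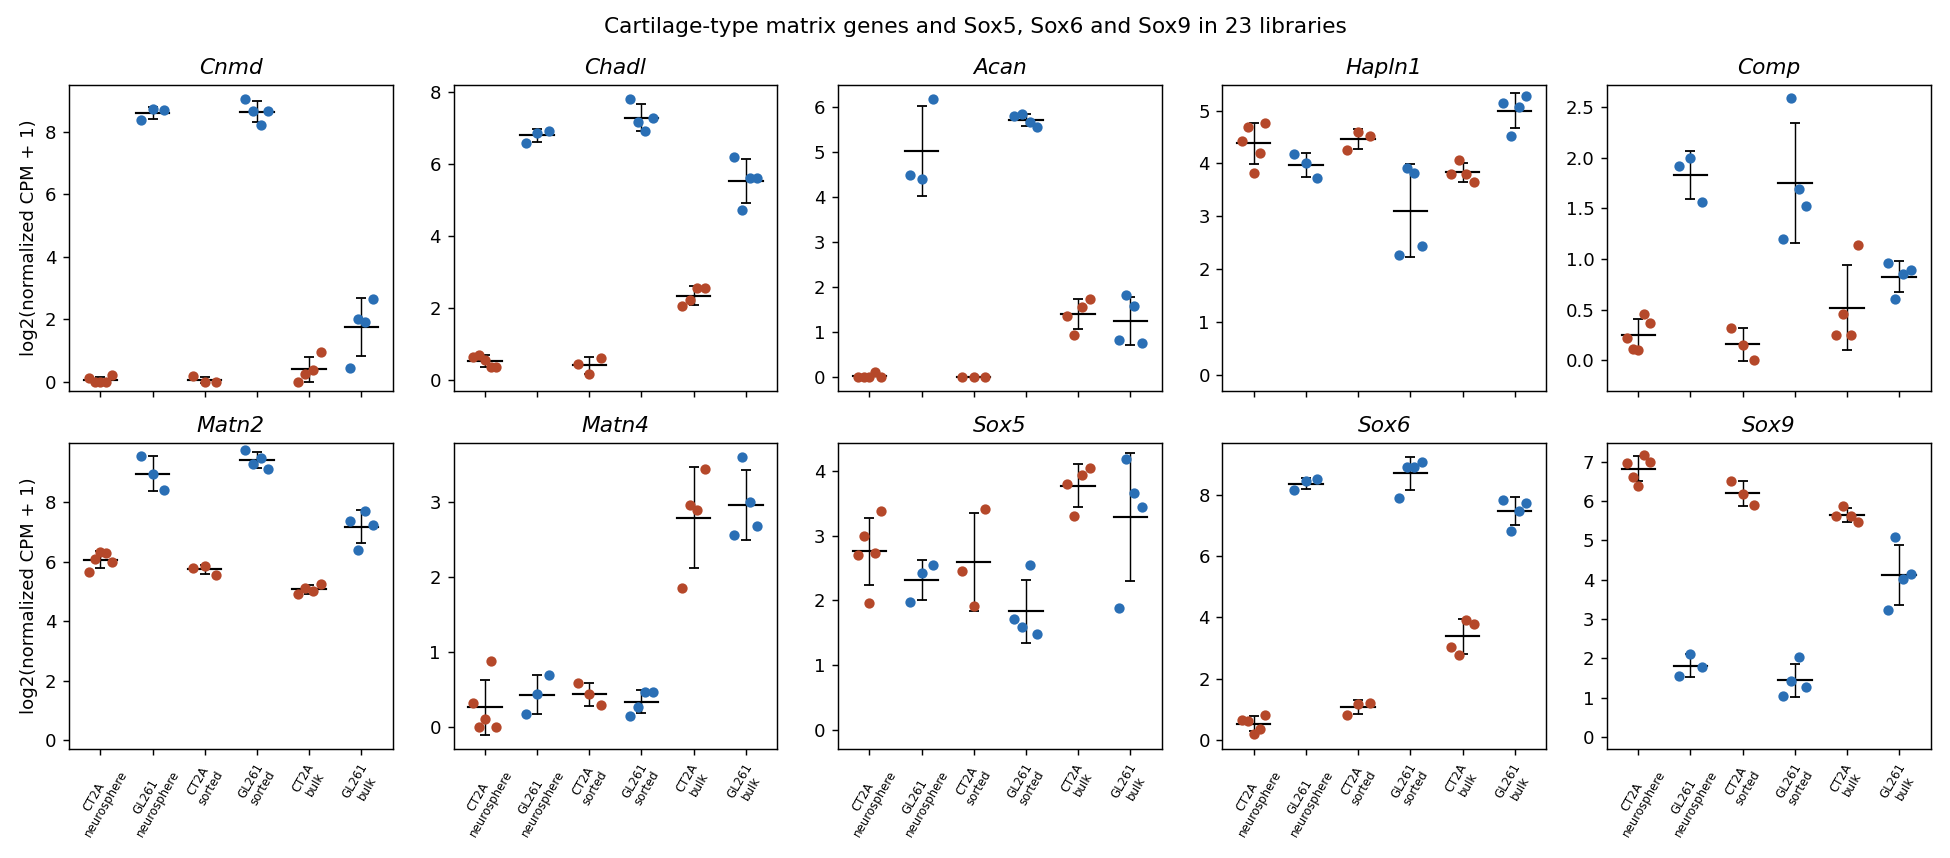
Level of each of the 10 genes in each of the 23 libraries, as log2(TMM-normalized CPM + 1), with CT2A left of GL261 within neurosphere-derived, sorted and bulk samples. Points are libraries and lines are group means. The sorted GL261 libraries sit at 299 to 529 CPM for Cnmd, while no CT2A library exceeds 0.924 CPM.

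Chondromodulin was nearly undetected in sorted CT2A cells. Cnmd (ENSMUSG00000022025, GRCm38 chr14:79637690-79662170, minus strand) had 1, 0 and 0 reads in the 3 sorted CT2A libraries, against 529, 404, 299 and 404 CPM in the 4 sorted GL261 libraries. In neurosphere-derived samples it had 1, 0, 0, 0 and 1 reads in the 5 CT2A libraries, against 329, 425 and 417 CPM in the 3 GL261 libraries. With so few reads on the CT2A side the fitted fold change is set by the prior count, so the ratio of the levels is given with a 95% exact Poisson interval that covers counting error only. The GL261 level was 10632 times that of CT2A in sorted cells (1908 to 419932) and 10887 times in neurosphere-derived cells (3014 to 89895). Bulk tumors had 0, 0.186, 0.28 and 0.924 CPM in CT2A and 0.365, 2.97, 2.76 and 5.19 CPM in GL261. There the ranges overlapped, and the log2 fold change of CT2A over GL261 was −2.91 (SE 0.98).

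Aggrecan followed the same order in sorted cells but not in bulk. Acan (ENSMUSG00000030607, chr7:79053483-79115099, plus strand) had 0 reads in each of the 3 sorted CT2A libraries, against 54.2, 56.2, 49.3 and 46.0 CPM in sorted GL261 cells. Against a floor of 3 counts per library this was at least 148-fold lower in CT2A. Neurosphere-derived CT2A cells held 1 read in replicate 60 and 0 in the other 4 libraries, against 21.5, 20.1 and 71.1 CPM in neurosphere-derived GL261 cells, of which replicate 91 was by far the highest. The GL261 level was 2095 times that of CT2A (376 to 82746, counting error only). Bulk tumors had 1.58, 0.929, 1.96 and 2.31 CPM in CT2A and 0.779, 2.54, 1.98 and 0.695 CPM in GL261, which overlapped, with a log2 fold change of 0.29 (SE 0.47).

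Among the Sox members, Sox6 had the direction of these matrix genes. It encodes a partner of SOX9 without a transactivation domain of its own. Sox6 (ENSMUSG00000051910, chr7:115470872-116038796, minus strand) had 0.743, 1.27 and 1.3 CPM in sorted CT2A cells, against 238, 479, 479 and 537 CPM in sorted GL261 cells. In neurosphere-derived cells it had 0.571, 0.545, 0.153, 0.277 and 0.739 CPM in CT2A and 282, 348 and 361 CPM in GL261. In bulk it had 7.26, 5.76, 14.1 and 12.7 CPM in CT2A and 227, 112, 178 and 212 CPM in GL261. CT2A was below GL261 without overlap in each, and the log2 fold changes were −8.64 (SE 0.43) in sorted, −9.58 (SE 0.27) in neurosphere-derived and −4.16 (SE 0.39) in bulk samples.

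Promoter windows are shown for Cnmd and Acan, the matrix members with the fewest reads in sorted CT2A cells, and for Sox6, the Sox member with the same direction. Each runs from 250 bases before to 50 bases after a RefSeq start on GRCm38.p6, is written 5′ to 3′ on the gene's own strand, and has the SOX-type motifs AACAAT or ACAAAG, searched on both strands, in capitals.
Cnmd (chr14:79662134-79662433, minus strand): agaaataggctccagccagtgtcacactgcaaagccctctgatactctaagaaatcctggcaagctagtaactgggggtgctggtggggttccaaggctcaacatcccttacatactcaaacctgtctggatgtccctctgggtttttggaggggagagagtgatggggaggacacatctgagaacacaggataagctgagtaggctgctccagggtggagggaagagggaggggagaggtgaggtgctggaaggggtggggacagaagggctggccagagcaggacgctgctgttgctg
Acan (chr7:79052976-79053275, plus strand): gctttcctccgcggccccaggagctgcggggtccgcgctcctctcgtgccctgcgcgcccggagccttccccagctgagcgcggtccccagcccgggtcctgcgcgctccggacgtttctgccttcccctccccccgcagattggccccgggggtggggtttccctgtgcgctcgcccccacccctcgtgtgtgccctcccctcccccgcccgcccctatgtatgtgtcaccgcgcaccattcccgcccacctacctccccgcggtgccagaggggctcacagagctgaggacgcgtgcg
Sox6 (chr7:116038695-116038994, minus strand): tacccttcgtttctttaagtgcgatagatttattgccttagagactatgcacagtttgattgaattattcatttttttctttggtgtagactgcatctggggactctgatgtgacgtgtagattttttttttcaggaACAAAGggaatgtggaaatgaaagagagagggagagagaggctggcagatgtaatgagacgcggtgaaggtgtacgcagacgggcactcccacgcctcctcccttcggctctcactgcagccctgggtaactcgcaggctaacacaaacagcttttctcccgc
The Sox6 window holds 1 ACAAAG that begins 113 bases before the start, and the Cnmd and Acan windows hold neither motif. In all, 7 of the 10 members were matched to 13 windows, which left out Comp, Matn2 and Sox9. Of the 6 Sox6 windows 5 held a motif, and none of the other 7 did (1 each for Cnmd, Chadl, Acan, Hapln1 and Sox5 and 2 for Matn4). Over all RefSeq promoter windows of this length, 8881 of 32851 (27.0%) held at least 1 of the motifs. A match is a run of letters and not a site. The GC content was 56.0% in the Cnmd window, 74.0% in that of Acan and 47.0% in that of Sox6, beside a median of 52.7% over all windows.

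Chadl, Matn2 and Comp, the other matrix members that were lower in CT2A, differed in level. Chadl (ENSMUSG00000063765, chr15:81678296-81697287, minus strand) encodes a leucine-rich repeat protein of cartilage. It had 0.372, 0.115 and 0.541 CPM in sorted CT2A cells, against 222, 141, 119 and 152 CPM in sorted GL261 cells. In neurosphere-derived cells it had 0.571, 0.623, 0.458, 0.277 and 0.296 CPM in CT2A and 93.8, 115 and 120 CPM in GL261. Bulk tumors kept the order, with 3.16, 3.62, 4.85 and 4.90 CPM in CT2A and 72.1, 25.2, 47.9 and 47.7 CPM in GL261. The log2 fold changes were −8.84 (SE 0.41), −7.89 (SE 0.21) and −3.51 (SE 0.38) in sorted, neurosphere-derived and bulk samples in that order, and the lines overlapped in none of the 3.

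Matn2 (ENSMUSG00000022324, chr15:34306677-34436273, plus strand), a matrilin found in many connective tissues and around nerves, was abundant in both lines. Sorted CT2A cells had 54.6, 57.7 and 46.5 CPM, against 861, 625, 725 and 559 CPM in sorted GL261 cells. Neurosphere-derived samples had 49.6, 67.6, 79.7, 77.9 and 62.4 CPM in CT2A and 758, 490 and 337 CPM in GL261, and bulk tumors had 28.9, 34.0, 31.5 and 37.0 CPM in CT2A and 163, 83.7, 208 and 151 CPM in GL261. CT2A was lower without overlap throughout, by log2 fold changes of −3.76 (SE 0.21), −3.01 (SE 0.25) and −2.15 (SE 0.29). Comp (ENSMUSG00000031849, chr8:70373558-70382066, plus strand) was scarce, at 0 to 0.248 CPM in sorted CT2A cells and 1.3 to 5.01 CPM in sorted GL261 cells. Its 3 reads in the sorted CT2A libraries give a GL261 level 22.6 times as high (7.72 to 109, counting error only). Neurosphere-derived cells had 0.0764 to 0.37 CPM in CT2A and 1.95 to 3 CPM in GL261, and bulk tumors, at 0.186 to 1.2 CPM in CT2A and 0.518 to 0.949 CPM in GL261, overlapped. Without sorted GL261 replicate 82, or without neurosphere-derived GL261 replicate 89 or 90, Comp fell below the minimum mean count of 10 and was not tested.

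Link protein ran the other way between bulk and sorted samples. Hapln1 (ENSMUSG00000021613, chr13:89539796-89611652, plus strand) had 18.1, 23.3 and 22 CPM in sorted CT2A cells, against 3.79, 14.1, 13.2 and 4.41 CPM in sorted GL261 cells, where the 4 libraries formed a higher and a lower pair. Neurosphere-derived samples had 20.6, 24.9, 13.1, 17.4 and 26.2 CPM in CT2A and 17.1, 15.2 and 12.3 CPM in GL261, and these overlapped. In bulk tumors, though, CT2A had 13.0, 15.8, 13.0 and 11.5 CPM and GL261 had 34.2, 21.9, 32.7 and 37.5 CPM, so CT2A was lower without overlap. The log2 fold changes were 1.2 (SE 0.47) in sorted, 0.41 (SE 0.24) in neurosphere-derived and −1.18 (SE 0.23) in bulk samples. Matn4 (ENSMUSG00000016995, chr2:164389393-164405160, minus strand), a matrilin that is also expressed in brain, stayed at 0 to 0.832 CPM in every sorted library of either line and was too low to be tested there. Bulk tumors had 2.61, 6.78, 6.43 and 9.88 CPM in CT2A and 4.87, 11.1, 7 and 5.38 CPM in GL261, which overlapped.

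Sox9 was the only member with a clear excess in CT2A in all 3 kinds of sample. It encodes the master regulator of cartilage. Sox9 (ENSMUSG00000000567, chr11:112782224-112787760, plus strand) had 90.4, 71.6 and 58.1 CPM in sorted CT2A cells, against 1.08, 1.70, 3.10 and 1.41 CPM in sorted GL261 cells. Neurosphere-derived samples had 123, 97.3, 81.6, 142 and 125 CPM in CT2A and 1.94, 3.34 and 2.44 CPM in GL261. In bulk, CT2A tumors had 47.7, 57.7, 48.4 and 43.3 CPM and GL261 tumors 8.42, 33.0, 15.3 and 16.7 CPM. No GL261 library reached the lowest CT2A library of its kind, and the log2 fold changes were 5.29 (SE 0.34), 5.41 (SE 0.28) and 1.55 (SE 0.32). Sox5 (ENSMUSG00000041540, chr6:143828425-144781977, minus strand), the close relative of Sox6, did not separate the lines. It had 4.46, 2.77 and 9.63 CPM in sorted CT2A cells, against 2.27, 2.00, 4.84 and 1.78 CPM in sorted GL261 cells, and 5.47, 7.01, 2.90, 5.64 and 9.46 CPM in neurosphere-derived CT2A cells, against 2.91, 4.38 and 4.87 CPM in neurosphere-derived GL261 cells. All these ranges overlapped, and its log2 fold changes were 0.99 (SE 0.53), 0.53 (SE 0.38) and, in bulk, 0.45 (SE 0.44).

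**Figure D2:**
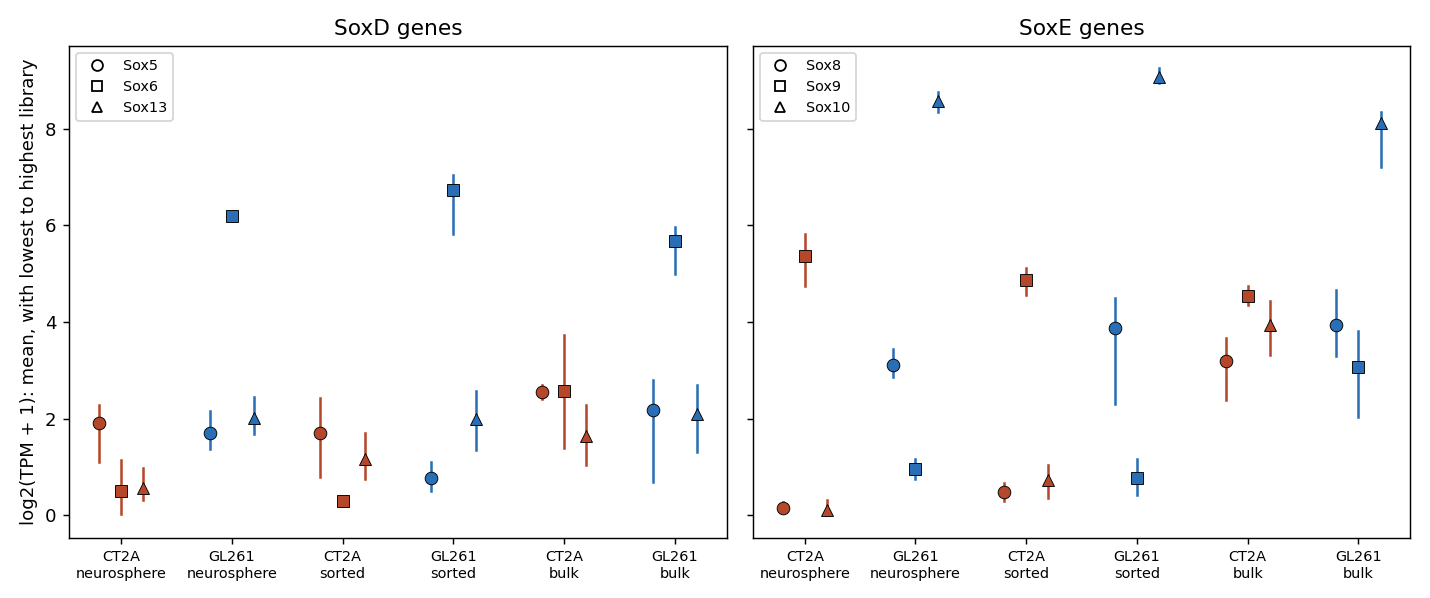
Levels of Sox5, Sox6 and Sox13 (the SoxD genes, left) and of Sox8, Sox9 and Sox10 (the SoxE genes, right) as log2(TPM + 1), with CT2A left of GL261 in each kind of sample. Symbols are group means and bars run from the lowest to the highest library. Sox9 is higher in CT2A, at a mean of 28.1 TPM in sorted cells, and Sox6 and Sox10 are higher in GL261, at 106 and 536 TPM.

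Counted against all genes, 4 of the 10 members tested in bulk tumors were lower in CT2A at an adjusted p under 0.05 in edgeR's quasi-likelihood test (Chadl, Hapln1, Matn2 and Sox6) and 1 was higher (Sox9), where 11.9% of all 16451 genes tested were lower and 11.4% higher. In sorted cells 6 of the 9 members tested were lower and 1 was higher, where 26.8% of 13792 genes were lower and 24.0% higher. In neurosphere-derived cells the same 6 of 9 were lower and the same 1 higher, where 29.6% of 13742 genes were lower and 29.9% higher. Median log2 fold changes of the tested members were −0.91 in bulk, −4.38 in sorted and −3.76 in neurosphere-derived samples, beside −0.05, −0.01 and 0.03 over all genes. Without CT2A replicate 39 or GL261 replicate 414 the bulk comparison had 2475 or 2559 genes past the threshold, against 3841 with all libraries. Because the same reads chose the members, nothing is read from these counts. The counts moved with the setting through Cnmd in bulk, which was also counted with DESeq2, with all 6 groups in 1 fit, with an effective-length offset, and without CT2A replicate 48 (at a log2 fold change of −4.04) or GL261 replicate 405. Hapln1 was also counted, as higher in sorted CT2A cells, with DESeq2, with all 6 groups in 1 fit, and without GL261 replicate 82 or 83, and as higher in neurosphere-derived CT2A cells without CT2A replicate 59.

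**Figure D3:**
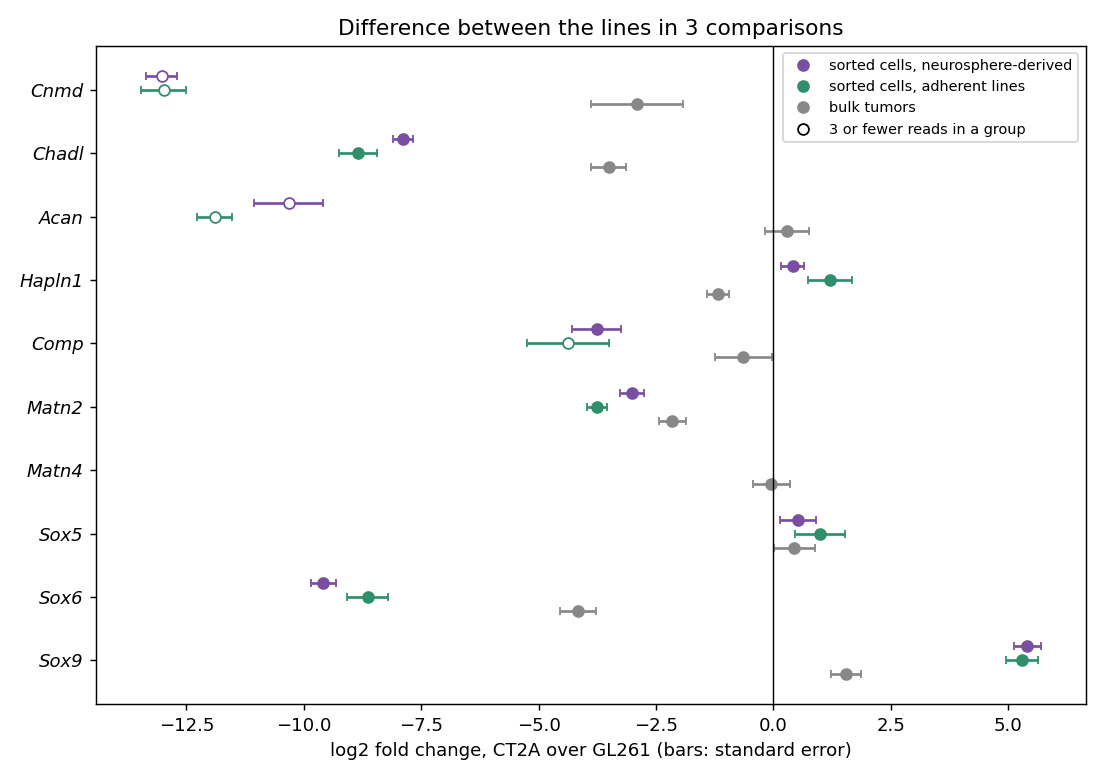
Log2 fold change of CT2A over GL261 for the 10 genes, with SE bars, in neurosphere-derived cells, sorted cells of adherent lines and bulk tumors. Open circles mark a fold change fitted with 3 or fewer reads in a group, which depends on the prior count. The values of Acan lie near 0 in bulk and on the open circles far to the left in sorted cells, and Matn4 was tested in bulk only.

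Set against sorted cells of the same line, the bulk tumors held the members in different proportions. In GL261 the sorted level was 145 times the bulk level for Cnmd and 34.3 times for Acan, but only 4.57 times for Matn2, 3.33 times for Comp, 3.29 times for Chadl and 2.38 times for Sox6. Sox10, an oligodendrocyte-lineage factor that is not a member, had a ratio of 2.16. Hapln1, Sox5, Sox9 and Matn4 were instead higher in GL261 bulk, by 3.56, 3.79, 10.1 and 26.8 times. In CT2A, Sox9, Matn2 and Hapln1 were 1.49, 1.61 and 1.58 times as high in sorted cells as in bulk, while Sox6 and Chadl were 9.03 and 12.1 times as high in bulk. The authors' RSEM counts of the same libraries, scaled in the same way, gave 316 to 473 CPM of Cnmd in sorted GL261 cells and 0.436 to 5.67 CPM in GL261 bulk. In a joint fit, the line difference in sorted cells minus that in bulk was −13.08 (SE 1.08) on the log2 scale for Acan, −10.17 (SE 1.92) for Cnmd, −5.27 (SE 0.60) for Chadl, −4.40 (SE 0.55) for Sox6, −3.72 (SE 1.11) for Comp and −1.51 (SE 0.34) for Matn2. It was 3.90 (SE 0.53) for Sox9, 2.49 (SE 0.52) for Hapln1, 0.71 (SE 0.73) for Sox5 and 0.53 (SE 0.76) for Matn4. In that fit 13.5% of all genes differed at an adjusted p under 0.05. Acan, Cnmd and Comp had 3 or fewer reads in sorted CT2A cells, so the size of their values in that fit depends on the prior count.

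Markers of brain cells varied between the bulk tumors, and so did several members. A neuron score, averaging log2(CPM + 1) over 9 genes of neurons, was 6.89, 5.66, 7.42 and 7.69 in the 4 CT2A bulk tumors and 4.39, 8.23, 7.18 and 6.77 in the 4 GL261 bulk tumors, against 1.58 to 3.07 in all sorted libraries. Sox5 in bulk had 12.9, 8.83, 14.3 and 15.6 CPM in CT2A and 2.68, 17.1, 11.7 and 9.90 CPM in GL261, so within each line it ran in the order of that score. Acan was lowest in the CT2A tumor with the lowest score and highest in the tumor of each line with the highest score, and Matn4 was likewise highest there. Sox9 in GL261 bulk was lowest, at 8.42 CPM, in replicate 405, which had the lowest astrocyte score of its line, 5.98, and highest, at 33.0 CPM, in replicate 412, which had the highest, 7.94. In CT2A bulk these extremes ran the other way, with Sox9 highest, at 57.7 CPM, in replicate 40, which had the lowest astrocyte score, 6.06, and lowest, at 43.3 CPM, in replicate 48, which had the highest, 7.23. Chadl ran against the neuron score in GL261, at 72.1 CPM in replicate 405 and 25.2 CPM in replicate 412, but not in CT2A, where the tumors with the highest scores, 7.42 and 7.69, had the highest Chadl, 4.85 and 4.9 CPM. In bulk tissue fewer cells of a type and less RNA per cell cannot be told apart, and the part of brain tissue in these levels was not tested.

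**Figure D4:**
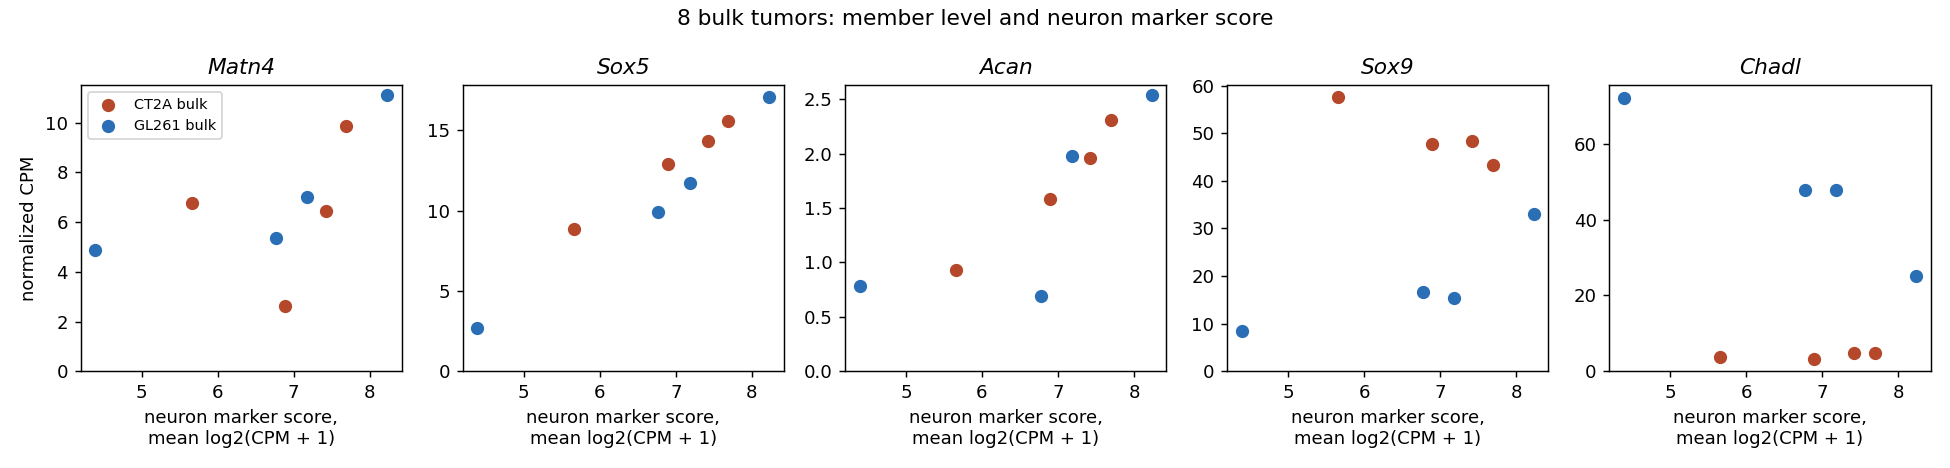
Level of Matn4, Sox5, Acan, Sox9 and Chadl in the 8 bulk tumors, in TMM-normalized CPM, against the neuron score of each tumor. Each point is a tumor and the colors are the lines, CT2A and GL261. Sox5 increases with the score within each line, and the GL261 tumor with the lowest score, 4.39, has the lowest Sox5 of all, 2.68 CPM.

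Marker scores of other cell types, computed in the same way, are given for both lines. An oligodendrocyte progenitor score of 7 genes was 2.11 to 2.47 in neurosphere-derived CT2A and 7.42 to 7.73 in neurosphere-derived GL261 libraries, 2.68 to 2.81 in sorted CT2A and 7.47 to 8.01 in sorted GL261, and 4.45 to 5.28 in CT2A bulk and 6.34 to 6.44 in GL261 bulk. Of its genes, 5 of 7 were lower in CT2A in each of the 3 comparisons, and 2 were higher in bulk, 1 in sorted and 1 in neurosphere-derived samples. Olig2, a defining factor of that lineage, was at 0.216 to 0.807 CPM in sorted CT2A cells and 174 to 217 CPM in sorted GL261 cells, whereas Pdgfra, also a marker of fibroblasts, was at 197 to 218 CPM in sorted CT2A cells and 50.3 to 108 CPM in sorted GL261 cells. Sox10, described with the other Sox genes, is 1 of the 7. A chondrocyte score of 8 genes was 0.635 to 0.728 in sorted CT2A and 4.16 to 4.63 in sorted GL261 cells, 0.542 to 0.773 and 3.94 to 4.78 in neurosphere-derived CT2A and GL261 cells, and 0.961 to 1.09 in CT2A bulk and 2.69 to 3.27 in GL261 bulk. Matn1, Snorc and Ucma had no reads in neurosphere-derived CT2A cells, the same 3 and Epyc had none in sorted CT2A cells, and Epyc had none in sorted GL261 cells. In sorted GL261 cells the score rested on 3 collagen genes, with Col2a1 at 1781 to 3044 CPM, Col9a1 at 533 to 1285 CPM and Col11a2 at 660 CPM or more, while Matn1 was at 1.99 to 4.23 CPM, Snorc at 2.48 to 6.93 CPM, and Matn3 and Ucma were at or below 0.47 CPM. All 8 chondrocyte markers are also members of the gene lists below. The macrophage score was highest in neurosphere-derived GL261 cells, at 8.02 to 8.69, against 4.99 to 6.91 in neurosphere-derived CT2A cells. It was 5.45 to 6.42 in sorted CT2A and 3.42 to 5.86 in sorted GL261 cells, which overlapped. Sorted GL261 replicates 81 and 84, the pair with less Hapln1, had macrophage scores of 3.42 and 4.98, against 5.86 in both replicates 82 and 83. Neuron scores were 1.99 and 1.98 in replicates 81 and 84, against 2.8 and 3.07 in replicates 82 and 83. The part of such cells in these Hapln1 levels was not tested. In bulk tumors the macrophage score was 5.41 to 6.05 in CT2A and 5.63 to 6.06 in GL261. The neurosphere-derived GL261 libraries, though sorted, thus scored above the bulk tumors.

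The joint score of fibroblast and meningeal markers was higher in CT2A, at 3.61 to 3.89 in sorted CT2A and 1.61 to 2.28 in sorted GL261 cells, and 3.92 to 5.58 in CT2A bulk and 2.39 to 3.65 in GL261 bulk, with overlap in neurosphere-derived cells (3.21 to 3.72 in CT2A, 2.06 to 3.55 in GL261). In sorted CT2A cells Col1a1 was at 425 to 1022 CPM and Pdgfra at 197 to 218 CPM, while Slc6a13 and Foxd1 were at or below 0.124 CPM. In bulk Foxd1 was lower in CT2A, at 0.557 to 1.21 CPM against 3.28 to 5.74 CPM in GL261. Mature oligodendrocyte markers scored lower in CT2A in sorted cells (3.21 to 3.52 in CT2A, 4.64 to 5.48 in GL261) and in neurosphere-derived cells (1.54 to 3.82 in CT2A, 4.88 to 5.06 in GL261). In neurosphere-derived cells CT2A was also lower for astrocyte markers (1.88 to 3.21 in CT2A, 4.5 to 4.95 in GL261), endothelial markers (2.16 to 3.11 in CT2A, 4.22 to 4.63 in GL261) and pericyte markers (2.72 to 3.62 in CT2A, 3.84 to 4.11 in GL261). In sorted cells of adherent lines these 3 scores overlapped between CT2A (astrocytes 4.08 to 4.72, endothelium 2.66 to 3.48, pericytes 3.61 to 3.78) and GL261 (astrocytes 3.34 to 5.29, endothelium 3.01 to 4.77, pericytes 2.68 to 3.69), although 4 of 8 endothelial genes were lower in CT2A. In bulk tumors the pericyte score was instead higher in CT2A (3.78 to 4.08 in CT2A, 3.3 to 3.74 in GL261), with 3 of 8 genes higher and 0 lower. The part of any of these cell types in the line differences of the members was not tested.

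Neurosphere culture before implantation gave differences under 1 on the log2 scale in all members tested with all libraries. In GL261, neurosphere-derived over adherent-derived cells differed by log2 fold changes of −0.04 for Cnmd, −0.50 for Chadl, −0.43 for Acan, 0.78 for Hapln1, 0.02 for Comp, −0.35 for Matn2, 0.61 for Sox5, −0.36 for Sox6 and 0.53 for Sox9. By edgeR's quasi-likelihood test 0 of these 9 passed, 1 (Chadl) had an unadjusted p under 0.05 and DESeq2 called 0, where 8.53% of 13675 genes passed. These were 1167 genes, against 307, 453 and 776 without neurosphere-derived replicate 89, 90 or 91 and 2435, 759 and 408 without sorted replicate 81, 82 or 84. Without neurosphere-derived replicate 91, however, Acan was lower in neurosphere-derived cells at −1.26, and without sorted replicate 81 Sox6 was lower at −0.58, both at an adjusted p under 0.05 in edgeR. In CT2A the 4 members tested differed by −0.08 for Hapln1, 0.32 for Matn2, 0.08 for Sox5 and 0.61 for Sox9. Again 0 passed, 1 (Sox9) had an unadjusted p under 0.05 and DESeq2 called 0, where 0.167% of 13150 genes passed. These were 22 genes, against 0 without neurosphere-derived replicate 57 or sorted replicate 70 or 71, 12 and 8 without neurosphere-derived replicate 58 or 61 and 191 without replicate 60. The difference of culture between the lines passed for 0 of 9 members, with 0 at an unadjusted p under 0.05 and 0 by DESeq2, where 6.66% of 13827 genes passed. Neurosphere comparisons of culture and of line share libraries, and a p above the threshold does not show that levels were alike.

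Between genes, the order of levels is given in TPM, Salmon's measure that is corrected for transcript length. In sorted GL261 cells Cnmd led with 534 ± 72.9 TPM (SD, n = 4), followed by Matn2 at 308 ± 39.0, Chadl at 106 ± 18.8 and Sox6 at 106 ± 34.0, Acan at 12.0 ± 1.60 and Hapln1 at 2.80 ± 1.44, with Sox9 at 0.704 ± 0.385 near the end. Chadl and Sox6 overlapped, as did Hapln1 and Comp, while Cnmd and Matn2 lay apart. Sorted CT2A cells had a different leader, with Sox9 at 28.1 ± 5.64 TPM (SD, n = 3) and Matn2 at 23.9 ± 2.44, which overlapped, then Hapln1 at 5.79 ± 0.837, and Acan last at 0. In CT2A bulk tumors Sox9 led again, with 22.2 ± 2.61 TPM against 19.8 ± 3.48 for Matn2 (SD, n = 4). In GL261 bulk, Matn2 led with 74.4 ± 28.2 TPM, overlapping Sox6 at 50 ± 13.6, while Cnmd was at 4.6 ± 3 and Acan last at 0.455 ± 0.251 (SD, n = 4). Neurosphere-derived cells had the same leaders, with Sox9 at 40.2 ± 10.8 TPM in CT2A (SD, n = 5) and Cnmd at 496 ± 88.6 TPM in GL261 (SD, n = 3).

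The reads of most members came from few transcripts. In sorted GL261 cells Cnmd was split between a transcript of 1362 bases (49.1%) and another of 1433 bases (48.4%), while a single transcript took 94.4% of Chadl, 93.3% of Acan and 72.6% of Sox6. Matn2 was shared by transcripts of 3569 and 3551 bases, at 72.2% and 21.2% in sorted CT2A cells and 60.4% and 28.6% in sorted GL261 cells. The main Sox5 transcript varied from library to library, between 0 and 100% of its few reads in sorted GL261 cells. On the opposite strand, Chadl overlaps L3mbtl2 over 10020 bases, Matn2 overlaps 9430069I07Rik over 8822, Matn4 overlaps Rbpjl over 2020 and Hapln1 overlaps the pseudogene Gm8546 over 1264, so reads could be shared where strand was not used.

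Neighboring genes were compared with each member in sorted cells, where 9 members were tested. There Cnmd stood at −12.97 relative to the median log2 fold change of all autosomal genes, beside −1.2 for its 10 nearest tested neighbors and −0.84 for the rest of chromosome 14. Chadl stood at −8.83 beside −0.09 for its neighbors and −0.34 for chromosome 15, Sox6 at −8.64 beside 0.08 and 0.00 for chromosome 7, and Sox9 at 5.3 beside 0.52 for its neighbors and −0.17 for chromosome 11. Acan stood at −11.89 beside −0.22 for its neighbors, Comp at −4.38 beside −0.26, Matn2 at −3.76 beside 0.05 and Hapln1 at 1.2 beside 0.18. Sox5, at 1.0, lay beside neighbors at −0.73, in the other direction. The values of Cnmd, Acan and Comp rest on 3 or fewer reads in sorted CT2A cells, so their size depends on the prior count.

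Genes with the most similar pattern were found by the root mean square difference of log2(CPM + 1), after removing each gene's mean, over the 23 libraries and 16124 genes. Nearest to Cnmd were Col9a3, a chain of collagen IX, at 1.44, H2-Eb2 at 1.67 and Acan at 1.68. Sox6 was nearest to Myo5b (0.40), the neuregulin receptor gene Erbb3 (0.41) and Slc47a1 (0.53), and Matn2 to Ugdh (0.42), which makes the sugar nucleotide for chondroitin sulfate and hyaluronan, Stard13 (0.45) and Creb5 (0.47). Sox9 was nearest to Lurap1l (0.39), Mfap3l (0.40) and Emx2 (0.40), and Acan to Lims2 (0.52), 1700024B05Rik (0.64) and Grap2 (0.65). Chadl lay closest to Efs (0.26), Gfpt2 (0.32) and Rps3a2 (0.33), and Hapln1 to Zdhhc15 (0.30) and Limk1 (0.48). Sox5, Matn4 and Comp were nearest to Ccdc65 (0.37), Pdzd9 (0.33) and Gm904 (0.29). With a pseudocount of 0.1 none of the 3 nearest genes stayed among the nearest for Chadl, Acan, Comp, Matn4 and Sox5, and all 3 did for Matn2.

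The wider cartilage program was described with 7 gene lists, whose counts are set beside the shares of all genes given above. Among the cartilage collagens 6 of 7 genes were lower and 1 higher in CT2A in bulk, sorted and neurosphere-derived samples (medians −3.18, −7.34 and −7.23). Col2a1, the main fibrillar collagen of cartilage, averaged 1.0 ± 0.282 CPM in sorted CT2A cells and 2405 ± 535 CPM in sorted GL261 cells (SD, n = 3 and 4), with a log2 fold change of −11.26 (SE 0.35, adjusted p 4.74e-07). In bulk tumors it averaged 3.11 ± 0.54 CPM in CT2A and 523 ± 318 CPM in GL261 (SD, n = 4 each; log2 fold change −7.34, SE 0.64, adjusted p 3.74e-04). The exception was Col10a1, the collagen of hypertrophic cartilage, with 98.4 ± 3.27 CPM in sorted CT2A cells and 0 reads in the 4 sorted GL261 libraries, and 21.4 ± 3.88 CPM in CT2A bulk and 0.114 ± 0.0611 CPM in GL261 bulk.

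Of the 8 lecticans, link proteins and matrilins outside the set, 1 of 6 tested passed in bulk and was higher in CT2A, while 1 of 5 was higher and 2 lower in sorted cells and 1 of 4 higher and 2 lower in neurosphere-derived cells (medians 0.08, −0.52 and −1.64). The gene that passed in bulk was Vcan, which encodes versican, the large hyaluronan-binding proteoglycan of loose connective tissue. It averaged 372 ± 122 CPM in CT2A bulk and 21.1 ± 8.02 CPM in GL261 bulk (SD, n = 4 each; log2 fold change 4.25, SE 0.34, adjusted p 2.74e-04), but its sorted difference was 0.81 (SE 0.41, adjusted p 0.132). Bcan, for the brain lectican brevican, averaged 5.03 ± 1.74 CPM in sorted CT2A cells and 97.7 ± 12.9 CPM in sorted GL261 cells (log2 fold change −4.32, SE 0.26, adjusted p 6.10e-06). Hapln4, a brain link protein gene, averaged 33.4 ± 0.474 CPM in sorted CT2A cells and 0.838 ± 0.343 CPM in sorted GL261 cells (log2 fold change 5.24, SE 0.31, adjusted p 6.28e-06). Matn1, the cartilage matrilin, had 0 reads in the 3 sorted CT2A libraries and 2.83 ± 0.99 CPM in sorted GL261 cells.

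Among 13 other cartilage matrix genes, 1 of 8 tested passed in bulk and was higher in CT2A, 4 of 7 were higher and 2 lower in sorted cells, and 3 of 7 were higher and 3 lower in neurosphere-derived cells (medians 0.22, 1.96 and −0.28). Cilp, a cartilage intermediate layer protein gene, averaged 5.14 ± 4.27 CPM in CT2A bulk and 0.158 ± 0.148 CPM in GL261 bulk (log2 fold change 5.07, SE 0.75, adjusted p 2.57e-03). In sorted cells it averaged 4.96 ± 2.85 CPM in CT2A and had 0 reads in GL261. Snorc, a small chondrocyte proteoglycan gene, had 0 reads in sorted CT2A cells and 4.68 ± 1.83 CPM in sorted GL261 cells. Scrg1 averaged 0.983 ± 0.428 CPM in sorted CT2A cells and 58.1 ± 22.1 CPM in sorted GL261 cells (log2 fold change −5.90, SE 0.42, adjusted p 1.45e-05). These genes went in both directions, unlike the collagens other than Col10a1.

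Of the genes for chondroitin sulfate synthesis, which makes the sugar chains of aggrecan, and for hyaluronan synthesis, 7 were lower and 5 higher in CT2A of 24 tested in bulk, 10 lower and 7 higher of 23 in sorted cells and 12 lower and 6 higher of 23 in neurosphere-derived cells (medians −0.40, −0.39 and −0.81). Xylt1, whose enzyme starts the chain on the core protein, averaged 4.09 ± 1.72 CPM in sorted CT2A cells and 457 ± 67.8 CPM in sorted GL261 cells (log2 fold change −6.84, SE 0.33, adjusted p 2.44e-06). Ugdh averaged 109 ± 9.02 CPM in sorted CT2A cells and 1040 ± 153 CPM in sorted GL261 cells (log2 fold change −3.31, SE 0.17, adjusted p 3.04e-06). Slc26a2, the sulfate transporter mutated in several human chondrodysplasias, was lower by a log2 fold change of −3.10 in sorted cells (SE 0.27, adjusted p 4.13e-05) and −2.38 in bulk (SE 0.28, adjusted p 1.05e-03). Chsy1, which extends the chain, was instead higher in CT2A, at 212 ± 1.58 CPM in sorted CT2A cells and 35 ± 7 CPM in sorted GL261 cells (log2 fold change 2.55, SE 0.16, adjusted p 7.40e-06).

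The 11 genes for proteases of aggrecan and COMP and their inhibitor split, with 3 higher and 2 lower of 11 tested in bulk and 4 higher and 3 lower of 9 in both kinds of sorted sample (medians −0.40, −0.12 in adherent and 0.28 in neurosphere-derived cells). The aggrecanase gene Adamts4 averaged 249 ± 28.4 CPM in sorted CT2A cells and 23.6 ± 8.68 CPM in sorted GL261 cells (log2 fold change 3.34, SE 0.31, adjusted p 5.26e-05). Adamts5, the other main aggrecanase gene, had a log2 fold change of −2.11 (SE 0.27, adjusted p 2.73e-04) in sorted cells and −0.85 (SE 0.34, adjusted p 0.112) in bulk. Adamts7, whose protein cleaves COMP, was higher in CT2A by 3.95 (SE 0.30, adjusted p 2.01e-05) in sorted cells and 3.54 (SE 0.36, adjusted p 6.35e-04) in bulk.

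Among the 16 other Sox genes, 3 of 13 tested passed in bulk and 6 of 9 in sorted cells, all lower in CT2A, and in neurosphere-derived cells 7 of 9 were lower and 1 higher (medians −0.84, −1.95 and −2.50). Sox8 and Sox10, the SoxE relatives of Sox9, were on the side of Sox6 and not of Sox9. Sox10 averaged 0.659 ± 0.203 CPM in sorted CT2A cells and 891 ± 180 CPM in sorted GL261 cells (log2 fold change −10.43, SE 0.31, adjusted p 4.74e-07), and 20.4 ± 7.18 CPM in CT2A bulk and 413 ± 132 CPM in GL261 bulk (log2 fold change −4.30, SE 0.40, adjusted p 4.45e-04). Sox8 averaged 0.747 ± 0.344 CPM in sorted CT2A cells and 24.5 ± 13.8 CPM in sorted GL261 cells (log2 fold change −5.09, SE 0.66, adjusted p 3.45e-04), with −0.84 in bulk (SE 0.39, adjusted p 0.164). Sox2, a stem cell factor, was lower in CT2A by −1.26 in sorted cells (SE 0.12, adjusted p 7.53e-05).

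Of 26 chondrogenic regulators, 5 of 22 tested were higher and 2 lower in bulk, 8 of 17 higher and 3 lower in sorted cells, and 9 of 16 higher and 4 lower in neurosphere-derived cells (medians 0.14, 0.55 and 0.63). Runx2, the regulator of hypertrophic chondrocytes and osteoblasts, averaged 70.3 ± 8.28 CPM in sorted CT2A cells and 6.45 ± 2.45 CPM in sorted GL261 cells (log2 fold change 3.40, SE 0.27, adjusted p 2.37e-05). Runx1 was higher in CT2A by 2.83 in sorted cells (SE 0.13, adjusted p 2.04e-06) and 2.61 in bulk (SE 0.28, adjusted p 7.43e-04). Shox2, a limb and joint factor, averaged 88.0 ± 3.43 CPM in sorted CT2A cells and 5.06 ± 0.576 CPM in sorted GL261 cells (log2 fold change 4.06, SE 0.14, adjusted p 5.17e-07). Fgfr3, which restrains chondrocyte growth, was lower in CT2A by −2.60 in sorted cells (SE 0.46, adjusted p 1.84e-03).

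**Figure D5:**
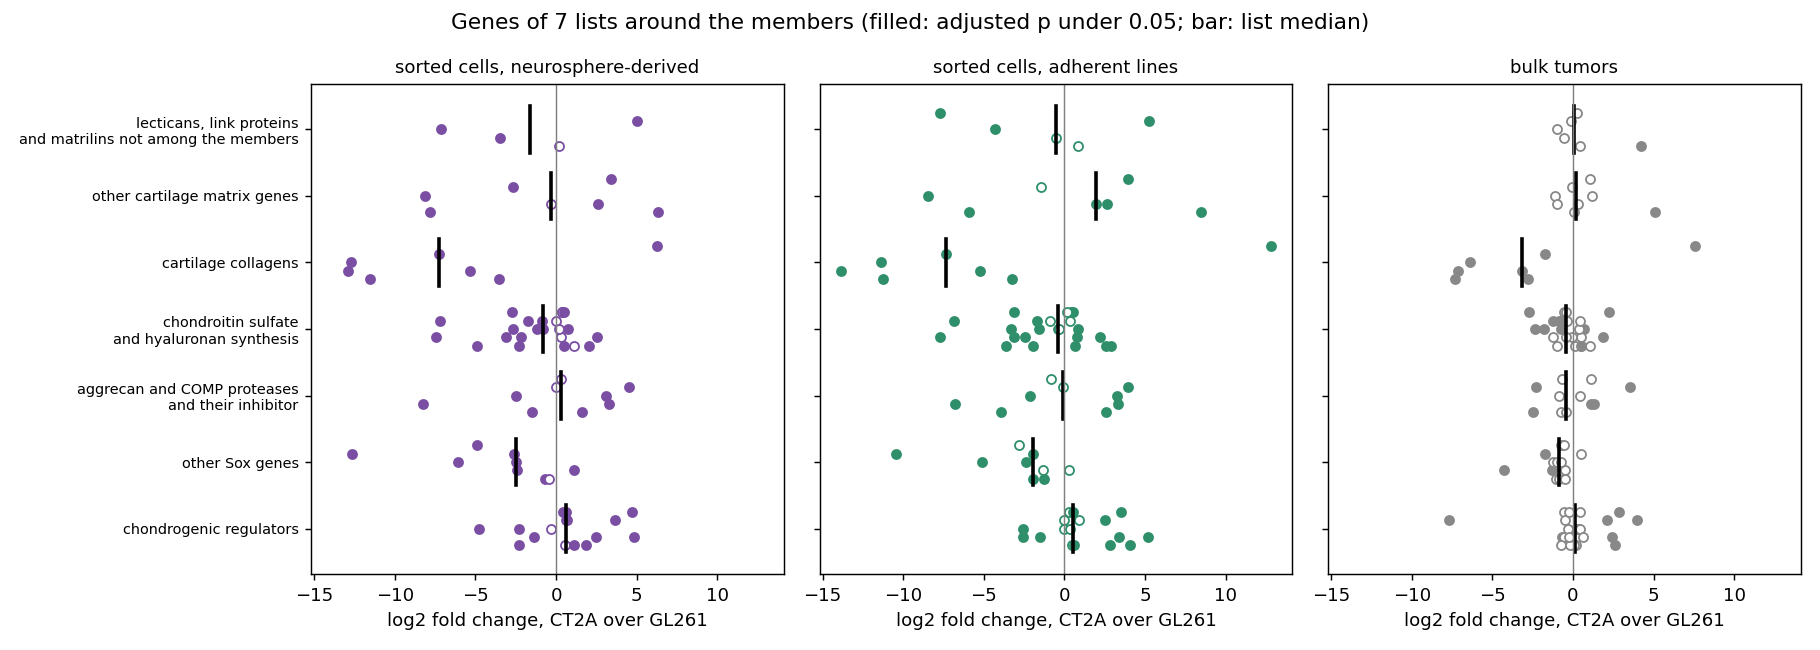
Log2 fold change of CT2A over GL261 for each tested gene of the 7 lists, in neurosphere-derived cells, sorted cells of adherent lines and bulk tumors. Filled points have an adjusted p under 0.05 in edgeR's quasi-likelihood test, and black bars are list medians. The cartilage collagens have medians of −7.23, −7.34 and −3.18 in that order, with Col10a1 alone on the right, and fold changes of genes with almost no reads in a group depend on the prior count.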

How the data were processed

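RNA was sequenced from 15 libraries of sorted tumor cells and 8 of bulk tumors. The authors ran Salmon on mm10 (GRCm38) transcripts and deposited estimated counts, TPM and effective lengths per transcript. For the bulk and adherent sorted libraries they also deposited expected counts per gene from STAR 2.7.7a and RSEM 1.3.3, used here as an alternative. Labels name 1 library kit throughout, while the study's methods name a directional kit for sorted cells.

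Estimated counts were summed per gene, rounded and scaled by TMM. Genes with a mean normalized count over 10 were tested with edgeR 4.0.16 (quasi-likelihood, R 4.3.3) on the groups of each comparison, with Benjamini-Hochberg adjustment at 0.05, and DESeq2 1.42.0 was an alternative. Each SE was derived from edgeR's test, as the absolute log2 fold change divided by the square root of the F statistic. The labels name no animals, while the paper counts the tumors it compared in mice. The p-values measure the spread between these libraries. Fits were tested on simulated counts. Promoters are from RefSeq (GRCm38.p6).

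The members, gene lists and markers were chosen with earlier results of these data known. The text names all members, up to 3 higher and 3 lower genes with the smallest p per list and comparison of the lines (some left out for length), and the 3 genes nearest in pattern to each member (fewer for Hapln1, Sox5, Matn4 and Comp; 1 is not reported here). Markers, genes that overlap a member and the other list genes past the threshold of an interaction were named beside these after their values were seen.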

Additional observations from a re-analysis of the deposited data

Results flagged for a closer look

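Acan in neurosphere-derived CT2A replicate 60 was at 0.0924 CPM, which is 1 read, while the other 4 libraries had 0. Sox5 in sorted GL261 replicate 83 was at 4.84 CPM, far from 1.78, 2.00 and 2.27 CPM in the others. Both stood apart by Dixon's test at the 95% level, which chance passes in about 1 of 20 groups, and 40 groups were tested. For Acan the other 4 libraries were tied at 0, so 1 read passes by construction and that rate does not apply.

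The line difference, CT2A over GL261, itself differed between sorted cells and bulk tumors for the genes of the lists that follow, all at an adjusted p under 0.05 in edgeR, where 13.5% of all genes did. Values are the sorted minus the bulk log2 fold change. Among collagens it was −3.83 for Col2a1, −6.86 for Col9a1, −4.92 for Col9a2, −5.5 for Col9a3, −1.95 for Col11a2 and 6.38 for Col10a1. Among proteoglycans, linkers and other matrix genes it was −3.29 for Vcan, −3.22 for Bcan, 4.98 for Hapln4, −7.72 for Matn1, 2.45 for Cilp2, 3.05 for Frzb and −4.84 for Scrg1. Among synthesis genes it was 1.62 for Has3, −1.98 for Ugdh, −4.0 for Xylt1, −5.89 for Chsy3, −2.0 for Chst3, 3.06 for Chst7, −1.62 for Chst11 and −3.06 for Papss2, and among proteases −1.37 for Adamts1, 2.29 for Adamts4, 1.38 for Adamts12, −4.43 for Adamts20 and 2.34 for Htra1. Among regulators it was −4.11 for Sox8, −6.06 for Sox10, 1.09 for Foxc1, 0.76 for Arid5b, 2.57 for Mef2c, 1.19 for Trps1, 1.33 for Shox2 and −2.19 for Wwp2. Neuron scores were 4.39 to 8.23 in bulk and 1.58 to 3.07 in sorted libraries, and the part of brain tissue in these differences was not tested. Matn1 and Col9a1 had almost no reads in sorted CT2A cells, and Col10a1 had almost none in sorted GL261 cells. The size of such values depends on the prior count.

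The effect of neurosphere culture differed between the lines, as the CT2A minus the GL261 log2 change, by −2.82 for Bcan, −2.28 for Mgp, 0.80 for Sox4, −2.27 for Sox10, −0.98 for Runx1 and −1.92 for Mef2c, where 6.66% of all genes differed at an adjusted p under 0.05 in edgeR. Macrophage scores were 4.99 to 6.91 in neurosphere-derived CT2A, 8.02 to 8.69 in neurosphere-derived GL261, 5.45 to 6.42 in sorted CT2A and 3.42 to 5.86 in sorted GL261 libraries, and their part in these differences was not tested. Sox10 was at 0 to 0.156 CPM in neurosphere-derived and 0.461 to 0.867 CPM in sorted CT2A cells, so its value rests on few reads there.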

How the results depend on the processing

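Of 622 log2 fold changes of members recomputed under alternatives, 571 moved by less than the spread and 51 moved by more, and no called one changed sign. No paired analysis was possible because the groups share no replicate numbers. With DESeq2, and with all 6 groups in 1 fit, 2 members were higher in sorted CT2A cells in place of 1, the added one being Hapln1. The count of genes changed by culture was 1167 in GL261 and 1873 with DESeq2. In CT2A it was 22, against 302 with DESeq2, 35 with DESeq2 size factors in edgeR, 59 with all 6 groups in 1 fit, 40 with filterByExpr and 87 with no minimum count. The interaction of line and culture had 921 genes, and 1541 with DESeq2. The cause of these shifts was not tested.

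Leaving out 1 library at a time, the count between the lines ranged from 2475 (without CT2A replicate 39) to 4777 in bulk, where it was 3841, and was 2559 without GL261 replicate 414. It ranged from 5556 to 8922 in sorted cells and from 6904 to 9115 in neurosphere-derived cells. Members lower in CT2A numbered 4 to 5 in bulk, 5 to 6 in sorted and 5 to 6 in neurosphere-derived samples, and members higher 1 to 1, 1 to 2 and 1 to 2. For culture, the count ranged from 307 to 2435 in GL261, with 0 to 1 members lower, and from 0 to 191 in CT2A. Scaling alternatives moved the median of all genes by at most 0.03 on the log2 scale. Depth limits members with 3 or fewer reads in a group.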
